A study of Homo sapiens with 8 samples.

Results

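The genes described here are 10 members of the ATF4 amino acid stress response: ATF4, ATF3, DDIT3, TRIB3, ASNS, CHAC1, PSAT1, PHGDH, SLC7A11 and SESN2. A member was taken as the array row annotated to its symbol and to no other gene. Each of the 10 had exactly 1 such row, so all 10 were measured, among 18377 genes with a row of their own. A further row annotated to both PHGDH and MZT2B was not used.

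RNA came from SHSY5Y cells, a human neuroblastoma line, carrying a stably integrated lentiviral vector under puromycin selection. The study asked how loss of a subunit of the Elongator complex alters gene expression before and during neuronal differentiation. The 8 arrays fall into 4 groups of 2: PLKO NDF, V71 NDF, PLKO DF and V71 DF. All cells were grown on laminin, and NDF cells were kept undifferentiated in growth medium with serum. DF cells received 10 µM retinoic acid for 5 days and then 2 nM brain-derived neurotrophic factor (BDNF) for 3 days without serum. Retinoic acid, BDNF and loss of serum change together, so their parts in a DF minus NDF difference cannot be told apart. PLKO and V71 are the line codes in the sample titles. The methods name the empty pLKO.1-Puro vector as the control, but the treatment label carries shRNA on the PLKO arrays and Control on the V71 arrays. The digits of V71 are the last digits of the shRNA clone number given in the methods. Which line carries the knockdown is therefore not settled by the labels, and the targeted gene was not analysed here. Every difference between lines is given as V71 minus PLKO, and each arm is 1 stable line, so the effect of the vector and any other difference between the lines cannot be told apart. The methods describe biological duplicates. Each limma p-value sets a difference against the spread within these pairs, pooled over the 4 groups and drawn toward that of all rows. Bulk RNA was measured, so fewer cells of a type and less RNA per cell cannot be told apart.

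Values are log2 intensities. Arrays of one group correlated at a Spearman coefficient of at least 0.9947, and arrays of different groups at 0.9931 or less. Of 11 noradrenergic neuroblast markers with a row, none fell under the lower quartile of its array (3 to 3.06). Of 16 markers of substrate-adherent (S-type) neuroblastoma cells, 0 to 4 per array fell under that quartile, and their mean level differed between lines, as given with the results it accompanies.

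ATF4 is a transcription factor of the integrated stress response. Kinases that sense amino acid shortage (EIF2AK4, also called GCN2), unfolded protein in the endoplasmic reticulum (EIF2AK3, PERK), double-stranded RNA or haem loss phosphorylate the initiation factor eIF2α. This lowers most protein synthesis but favours translation of the ATF4 mRNA, so ATF4 activity is set largely by translation and its transcript level is only part of the picture. ATF4 then binds C/EBP-ATF composite elements and raises genes for amino acid synthesis and uptake, tRNA charging and redox balance, together with the factors ATF3 and DDIT3 and the inhibitor TRIB3.

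The promoter elements below show the type of site through which ATF4 acts, and the members that carry one close to a RefSeq start. RefSeq promoter windows (GRCh38.p14, 250 bases before to 50 after each start) were matched for 9 of the 10 members, giving 15 windows. SLC7A11 was not among them. The element searched, TGATGNAA on either strand, was found in 3 windows, of ASNS, ATF3 and CHAC1, and in 3.62% of all 35116 windows. ASNS and ATF3 each had another window without it. Capitals mark the element, and each stretch reads 5′ to 3′ along the gene. The ASNS stretch lies at chr7:97872453-97872492 on the minus strand with the element starting 68 bases before the start of transcription. The ATF3 stretch lies at chr1:212565200-212565239 on the plus strand, with the element 191 bases before the start. The CHAC1 stretch lies at chr15:40953246-40953285 on the plus strand, with the element 209 bases before the start and reading as its reverse complement. A match is a description of the letters and not of binding.
ASNS: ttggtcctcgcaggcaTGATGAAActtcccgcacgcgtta
ATF3: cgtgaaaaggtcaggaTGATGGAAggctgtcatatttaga
CHAC1: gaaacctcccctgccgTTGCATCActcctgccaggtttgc

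The ATF4 transcript, the head of the pathway, varied over 5.67 to 5.99. It was 5.70 and 5.97 in PLKO NDF, 5.67 and 5.72 in V71 NDF, 5.83 and 5.99 in PLKO DF, and 5.85 and 5.74 in V71 DF. The V71 minus PLKO difference of ATF4 was -0.14 in NDF (limma 95% interval -0.39 to 0.11, adjusted p = 0.686) and -0.11 in DF (adjusted p = 0.712). The arrays of PLKO NDF spanned those of V71 DF and overlapped PLKO DF. Neither differentiation contrast of ATF4 passed, at 0.07 in PLKO (adjusted p = 0.8) and 0.10 in V71 (adjusted p = 0.67).

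ATF3, a stress-induced repressor that feeds back on the response, was low, at 3.76 to 4.22 over the 8 arrays, and the arrays of its groups were spread by an SD of up to 0.26. Its difference between lines was 0.18 in NDF (adjusted p = 0.701) and -0.24 in DF (adjusted p = 0.491). The difference of these differences, -0.42, had a 95% interval of -0.88 to 0.05 and an adjusted p of 0.61 by limma, and ATF3 was the only member whose interaction interval reached past 1.5-fold.

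DDIT3 encodes CHOP, the pro-apoptotic partner induced by ATF4. It was 4.71 and 4.80 in PLKO NDF, 4.77 and 4.56 in V71 NDF, 5.16 and 5.04 in PLKO DF, and 4.78 and 4.79 in V71 DF. PLKO DF stood above every other array. DDIT3 was 0.35 log2 units (1.27-fold) higher after differentiation in PLKO, with an adjusted p of 0.0457 that fell short of the 1.5-fold size. In V71 the same difference was 0.12 (adjusted p = 0.547), and the interaction of -0.23 did not pass (adjusted p = 0.71). The adjusted p of the PLKO difference was under 0.05 in 8 of 18 alternative settings and reached 0.249. Leaving out PLKO NDF replicate 2 or 3, PLKO DF replicate 1 or 2, or V71 DF replicate 1 or 2 each ended it.

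TRIB3, a pseudokinase that restrains ATF4 and DDIT3 activity, ranged only from 4.79 to 5.06. Its differences were 0.03 between lines in NDF, -0.02 in DF, 0.17 with differentiation in PLKO and 0.12 in V71, with adjusted p-values of 0.954, 0.949, 0.342 and 0.526. SESN2, a sensor that holds back mTORC1 when leucine is scarce, ranged from 4.78 to 4.99. All 4 of its differences lay between -0.09 and 0.09.

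**Figure D1:**
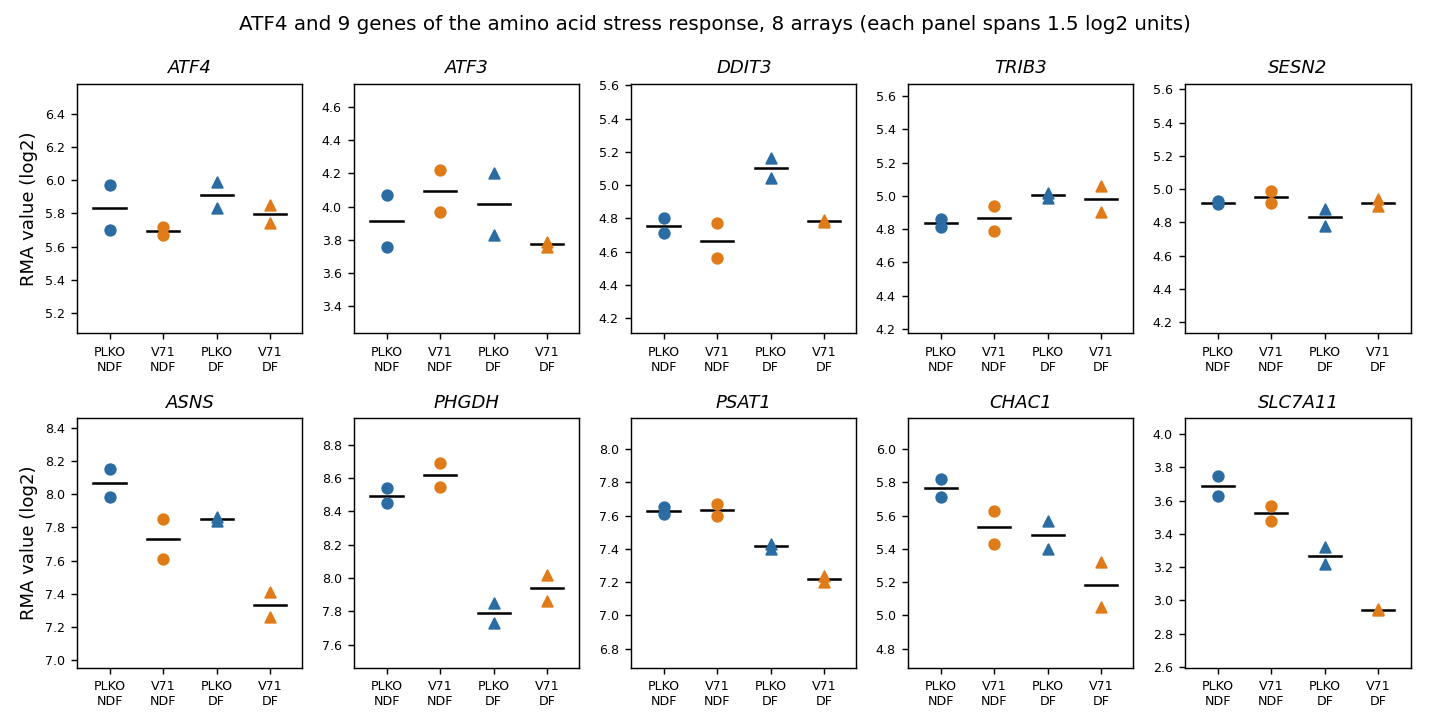
Log2 intensity of the 10 members on each of the 8 arrays, 1 panel per gene, with circles for NDF, triangles for DF, blue for PLKO and orange for V71. Short bars are means of 2 arrays and every panel spans 1.5 log2 units. PHGDH drops from 8.45 to 8.69 in NDF to 7.73 to 8.02 in DF, ASNS is lowest in V71 DF, and ATF4, TRIB3 and SESN2 hardly move.

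Among the enzymes of amino acid synthesis, the first enzyme of the serine pathway carried the only member calls. PHGDH catalyses the first and committed step of serine synthesis from glycolysis. It was 8.54 and 8.45 in PLKO NDF, 8.55 and 8.69 in V71 NDF, 7.73 and 7.85 in PLKO DF, and 8.02 and 7.86 in V71 DF. Every DF array lay below every NDF array. PHGDH fell by 0.71 log2 units (1.63-fold, 95% interval -0.93 to -0.49) in PLKO, with an adjusted p of 0.0011 by limma. In V71 it fell by 0.68 (1.6-fold, 95% interval -0.90 to -0.46, adjusted p = 0.00148). The drops in the lines differed by 0.03 (interaction, adjusted p = 0.977). PHGDH did not pass between lines in NDF (0.12, adjusted p = 0.693) or DF (0.16, adjusted p = 0.497). Without any 1 array the PLKO drop stayed between -0.77 and -0.65 and the V71 drop between -0.76 and -0.59, and the adjusted p was under 0.05 in all 18 settings for both.

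PSAT1, the aminotransferase that follows PHGDH, had the smallest residual SD of the 10 members, 0.034. It was 7.65 and 7.61 in PLKO NDF, 7.60 and 7.67 in V71 NDF, 7.43 and 7.40 in PLKO DF, and 7.24 and 7.20 in V71 DF. The NDF arrays of both lines overlapped, PLKO DF stood below them and V71 DF lower still. PSAT1 was 0.42 log2 units (1.33-fold) lower after differentiation in V71 (adjusted p = 0.00774) and 0.21 lower in PLKO (adjusted p = 0.136), both under 1.5-fold. The V71 adjusted p was under 0.05 in 17 of 18 settings, and was 0.0537 without V71 NDF replicate 3. The lines differed by 0.01 in NDF (adjusted p = 0.989) and by -0.20 in DF (adjusted p = 0.248), and the interaction of -0.20 did not pass (adjusted p = 0.674).

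ASNS, which makes asparagine from aspartate and glutamine and is a standard readout of ATF4, was the member with the largest difference between lines. It was 7.98 and 8.15 in PLKO NDF, 7.85 and 7.61 in V71 NDF, 7.84 and 7.86 in PLKO DF, and 7.41 and 7.26 in V71 DF. The order of group means was 8.07 in PLKO NDF, 7.85 in PLKO DF, 7.73 in V71 NDF and 7.34 in V71 DF. The middle groups overlapped, whereas both V71 DF arrays lay below the other 6. In DF cells ASNS was 0.52 log2 units (1.43-fold) lower in V71, with a 95% interval of -0.76 to -0.28 and an adjusted p of 0.0254 by limma, short of the 1.5-fold size. In NDF cells it was 0.34 lower (95% interval -0.58 to -0.10, adjusted p = 0.194). The DF difference kept an adjusted p under 0.05 in 12 of 18 settings. It reached 0.181 among the other 6, which were the fit without moderation, the replicate block and the removal of any of PLKO DF replicate 1 or 2 and V71 DF replicate 1 or 2. Its size stayed between -0.59 and -0.44. After differentiation ASNS was 0.39 lower in V71 (adjusted p = 0.0421, under 0.05 in 7 of 18 settings) and 0.21 lower in PLKO (adjusted p = 0.285), and the interaction of -0.18 did not pass (adjusted p = 0.815).

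SLC7A11, the cystine and glutamate exchanger that supplies cysteine for glutathione, was dim. It was 3.63 and 3.75 in PLKO NDF, 3.57 and 3.48 in V71 NDF, 3.32 and 3.22 in PLKO DF, and 2.95 and 2.94 in V71 DF. The 4 groups did not overlap, and both V71 DF values lay under the lower quartile of their arrays. SLC7A11 was 0.58 log2 units (1.49-fold) lower after differentiation in V71 (adjusted p = 0.00184) and 0.42 (1.34-fold) lower in PLKO (adjusted p = 0.0112). The V71 adjusted p was under 0.05 in all 17 settings that kept this dim row. The size passed 1.5-fold without V71 NDF replicate 3 (-0.63, adjusted p = 0.00882) and without V71 DF replicate 1 (-0.59, adjusted p = 0.014). In PLKO, leaving out PLKO NDF replicate 3 or PLKO DF replicate 2 took the adjusted p to at most 0.116. Between lines SLC7A11 differed by -0.16 in NDF (adjusted p = 0.49) and -0.32 in DF (adjusted p = 0.0742).

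CHAC1 degrades glutathione and is among the most stress-sensitive ATF4 targets. It was 5.82 and 5.71 in PLKO NDF, 5.43 and 5.63 in V71 NDF, 5.57 and 5.40 in PLKO DF, and 5.32 and 5.05 in V71 DF. V71 lay below PLKO in both states, by 0.24 in NDF (adjusted p = 0.467) and 0.30 in DF (adjusted p = 0.246), and neither passed. The differentiation differences of CHAC1 were -0.28 in PLKO (adjusted p = 0.188) and -0.34 in V71 (adjusted p = 0.103).

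Counted over the 10 members, a call needed an adjusted p under 0.05 over all 28869 rows by limma and a change of at least 1.5-fold. Between lines 0 of 10 members were called in NDF, where 2.15% of all genes were, and 0 of 10 in DF, where 3.06% were. At an unadjusted p under 0.05 the NDF count was 1 (ASNS), against 15% of all genes. The DF count was 5 (DDIT3, ASNS, CHAC1, PSAT1 and SLC7A11), against 19.5%. The analysis of variance without moderation also called 0 in both. At an adjusted p under 0.05 with any fold, the counts were 0 in NDF (3.41% of all genes) and 1, ASNS, in DF (6.51%).

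With differentiation 1 of 10 members, PHGDH, was called in PLKO, against 7.04% of all genes, and the same 1 in V71, against 7.53%. Both calls were downward, the direction of 4.16% and 3.55% of all genes. At any fold the counts were 3 in PLKO (DDIT3, PHGDH and SLC7A11), against 15.8%, and 4 in V71 (ASNS, PHGDH, PSAT1 and SLC7A11), against 16.5%. At an unadjusted p under 0.05 they were 5 in PLKO and 5 in V71, against 28% and 29.1%. No member had an interaction call by limma, where 1.39% of all genes did, nor by the analysis of variance without moderation. The count at an unadjusted p under 0.05 was also 0 for the interaction, against 10.2% of all genes.

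In DF, 8 of 10 were below 0 for V71 minus PLKO, where 48.6% of all genes were, with a median of -0.22 against 0.01 over all genes. In NDF it was 5 of 10, with a median of -0.04. With differentiation 6 of 10 were below 0 in PLKO (median -0.15) and 7 of 10 in V71 (median -0.33), where 47% and 50.8% of all genes were. The arrays of the lines did not overlap, with V71 lower, for 3 members in NDF and 6 in DF, against 21.5% and 21.1% of all genes. With V71 higher it was 1 in NDF and 2 in DF, against 26% and 24.6%. Between DF and NDF, 6 members in PLKO and 6 in V71 were lower in DF without overlap, against 25.9% and 27.3% of all genes, and 2 and 2 were higher, against 29.2% and 27.7%.

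In NDF the 95% interval of the line difference lay inside 1.5-fold in either direction for all 10 members, between -0.58 and 0.51 overall. In DF it did so for 9, the exception being ASNS. With differentiation 8 of the intervals lay inside 1.5-fold in PLKO and 4 in V71. An interval inside 1.5-fold bounds the size of a difference but does not show that a member was equal between groups. Where an interval reached past 1.5-fold, a missed call left a change of that size possible.

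**Figure D2:**
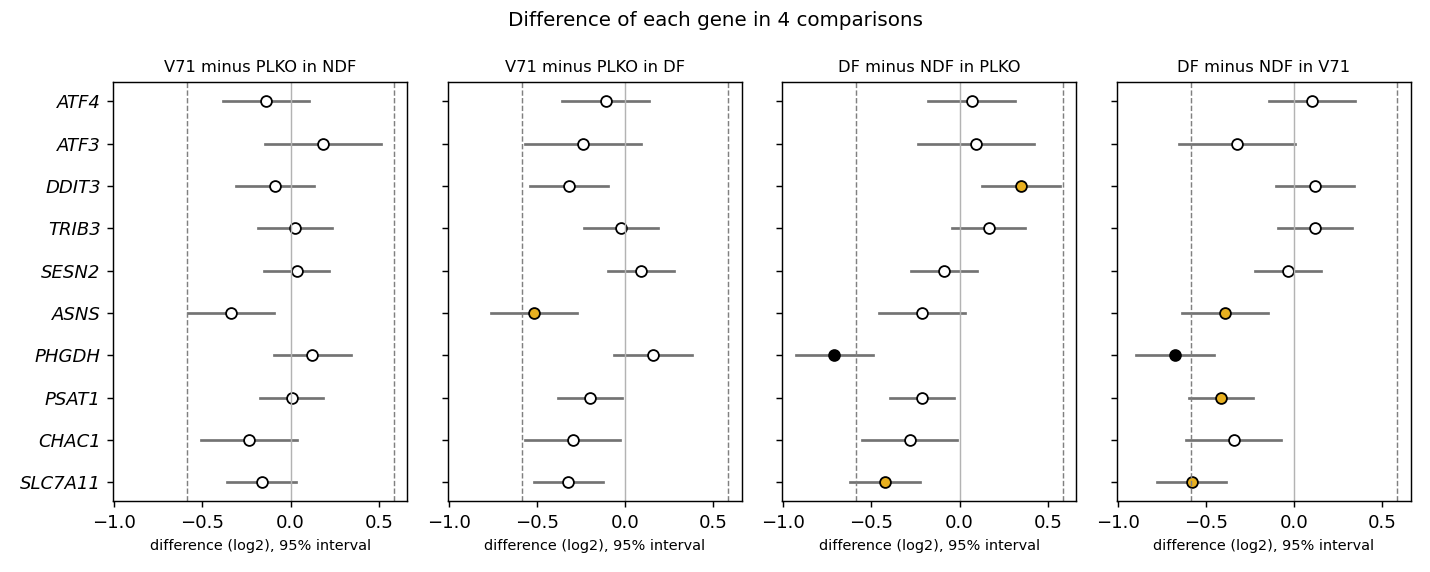
Difference in log2 intensity of the 10 members in 4 comparisons, with limma 95% intervals and dashed lines at 1.5-fold (0.585 log2 units). Black points were called, yellow points had an adjusted p under 0.05 with a smaller fold, and white points did neither. The black points are PHGDH in both differentiation comparisons.

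The wider pathway was read from lists that hold none of the 10 members. Among 14 regulators and feedback genes of the response, which include the 4 eIF2α kinases, 0 were called by limma between lines in NDF, between lines in DF or with differentiation in V71. Over all genes limma called 2.15%, 3.06% and 7.53% in these comparisons. At an unadjusted p under 0.05 the counts were 2, 6 and 3, against 15%, 19.5% and 29.1% of all genes. Without moderation 0 were called in each. With differentiation in PLKO 1 of the 14 was called, against 7.04% of all genes in either direction. The gene, NFE2L2, rose and encodes the antioxidant factor NRF2 that PERK can phosphorylate. It was 6.51 and 6.56 in PLKO NDF and 7.11 and 7.16 in PLKO DF, a difference of 0.60 (adjusted p = 0.00119). That call sat at the size threshold and ended without PLKO NDF replicate 2, without PLKO DF replicate 2 and after a further quantile normalization, at a smallest size of 0.57. In V71 it was 0.54 higher after differentiation (adjusted p = 0.00212, under 1.5-fold), and the interaction was -0.06 (adjusted p = 0.946). EIF2AK3, picked out after its values were seen, was 0.41 lower in V71 in DF (adjusted p = 0.0271), under 1.5-fold. The other eIF2α kinases were higher in V71 in DF and were not called. EIF2AK4 was 7.05 and 7.12 in V71 DF and 6.78 and 6.92 in PLKO DF. EIF2AK2 was 8.82 and 8.95 against 8.5 and 8.67, and EIF2AK1 9.88 and 9.86 against 9.73 and 9.75. Of the 14 genes 5 lay below 0 for V71 minus PLKO in DF, where 48.6% of all genes did, with a median of 0.09.

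Of 11 measured enzymes of amino acid synthesis and of the folate cycle that uses serine, 3 fell with differentiation in PLKO and 3 in V71, against 4.16% and 3.55% of all genes, and 8 were not called in each line. The list medians were -0.41 in PLKO and -0.34 in V71. Of the 11, 9 and 11 lay below 0, where 47% and 50.8% of all genes did.

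SHMT2 passes the serine carbon to folate in mitochondria. It was 7.98 and 7.91 in PLKO NDF, 7.92 and 7.93 in V71 NDF, 7.08 and 7.17 in PLKO DF, and 6.85 and 6.73 in V71 DF. The NDF and DF arrays were widely separated in both lines. SHMT2 fell by 0.82 in PLKO (adjusted p = 0.000189) and by 1.13 (2.19-fold) in V71 (adjusted p = 3.09e-05). It was called in all 18 settings in both.

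MTHFD2 is the next mitochondrial folate enzyme. It was 8.43 and 8.46 in PLKO NDF, 8.56 and 8.45 in V71 NDF, 7.80 and 7.84 in PLKO DF, and 7.90 and 7.83 in V71 DF. MTHFD2 fell by 0.63 in PLKO (adjusted p = 0.000918) and in V71 (adjusted p = 0.000857). The V71 call ended at a size of 0.58 without V71 NDF replicate 2 or with the mean of its 2 rows.

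ALDH18A1, which starts proline synthesis, was 8.43 and 8.48 in V71 NDF and 7.73 and 7.73 in V71 DF, and fell by 0.72 (adjusted p = 0.000338). In PLKO the difference was -0.51 (adjusted p = 0.00287, under 1.5-fold), and the interaction of -0.22 did not pass (adjusted p = 0.655). Not every gene of the group split by culture condition. The aspartate aminotransferase GOT1, picked out after its values were seen, differed by 0.04 in PLKO and -0.04 in V71 with differentiation, and by -0.45 (adjusted p = 0.0631) and -0.53 (adjusted p = 0.0198) between lines in NDF and DF. PSPH, the last enzyme of serine synthesis, also picked out after its values were seen, differed by 0.08 in PLKO and -0.16 in V71 with differentiation, and neither passed.

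**Figure D3:**
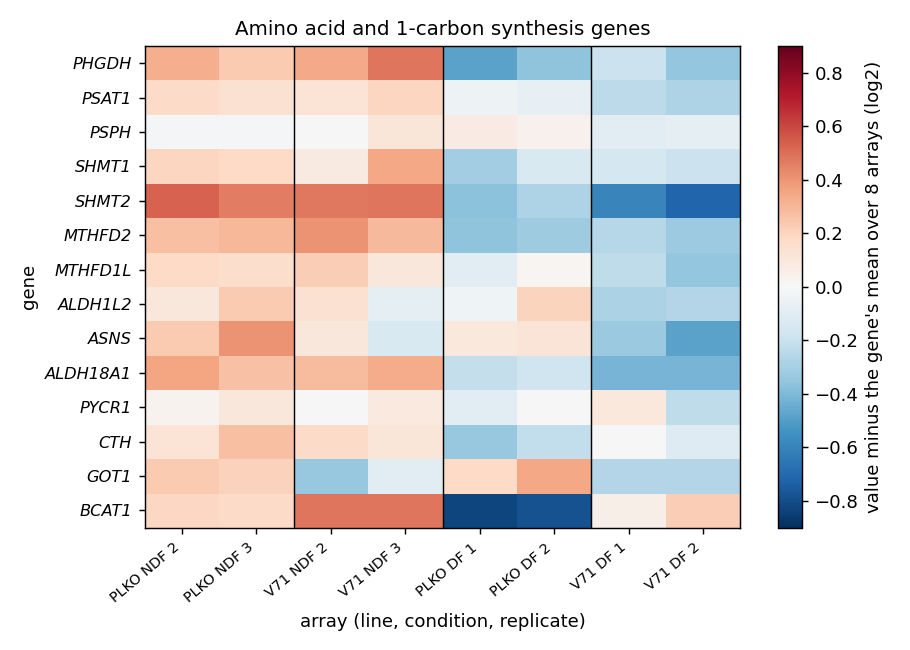
Log2 intensity minus the gene's mean over 8 arrays for 14 genes of amino acid and folate-linked synthesis (rows) on each array (columns). SHMT2, PHGDH, MTHFD2 and ALDH18A1 run from positive in NDF to negative in DF in both lines, whereas BCAT1 is lowest in PLKO DF.

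BCAT1, the cytosolic branched-chain amino acid transaminase, was 7.29 and 7.28 in PLKO NDF, 7.59 and 7.59 in V71 NDF, 6.28 and 6.32 in PLKO DF, and 7.16 and 7.33 in V71 DF. PLKO DF stood apart from all other arrays. BCAT1 fell by 0.99 with differentiation in PLKO (adjusted p = 6e-05) and its V71 minus PLKO difference in DF was 0.95 (1.93-fold, adjusted p = 0.000294), both called in all 18 settings. In V71 it was 0.34 lower after differentiation, also without overlap (adjusted p = 0.0307, under 1.5-fold). The interaction of 0.64 (adjusted p = 0.0498) ended in 12 of 17 settings, removal of each of the 8 arrays among them.

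Of 11 amino acid transporters 1 fell in each line with differentiation, against 4.16% of all genes in PLKO and 3.55% in V71. Between lines limma called 0 in NDF and 0 in DF, against 2.15% and 3.06% of all genes, and 0 were called without moderation. At an unadjusted p under 0.05 the counts between lines were 4 and 6, against 15% and 19.5% of all genes. SLC7A5, the light chain of the large neutral amino acid exchanger LAT1, was 7.23 and 7.40 in V71 NDF and 6.5 and 6.51 in V71 DF. It fell by 0.81 in V71 (adjusted p = 0.000281, in all 18 settings), and the PLKO difference was -0.39 (adjusted p = 0.0171, under 1.5-fold). SLC1A5, a glutamine carrier, was 6.48 and 6.38 in PLKO NDF and 5.70 and 5.54 in PLKO DF, and fell by 0.81 (adjusted p = 0.00241). That SLC1A5 call ended without moderation and with the mean of its 2 rows, which gave 0.45. In V71 the SLC1A5 difference was -0.48 (adjusted p = 0.0344, under 1.5-fold). Neither interaction passed, with adjusted p-values of 0.261 for SLC7A5 and 0.662 for SLC1A5.

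Of 13 tRNA genes, the synthetases and the tRNA exporter XPOT, 1 fell in V71 with differentiation, against 3.55% of all genes. Limma called 0 between lines in NDF and in DF and with differentiation in PLKO, against 2.15%, 3.06% and 7.04% of all genes. Without moderation these were also 0. At an unadjusted p under 0.05 these counts were 0, 5 and 4, against 15%, 19.5% and 28% of all genes. YARS1, which charges tyrosine, was 7.69 and 7.86 in V71 NDF and 6.99 and 7.11 in V71 DF, a drop of 0.73 (adjusted p = 0.00141). In PLKO the difference was -0.24 (adjusted p = 0.205), and the interaction did not pass (adjusted p = 0.255). In DF 12 of the 13 lay below 0 for V71 minus PLKO, where 48.6% of all genes did, with a median of -0.17.

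**Figure D4:**
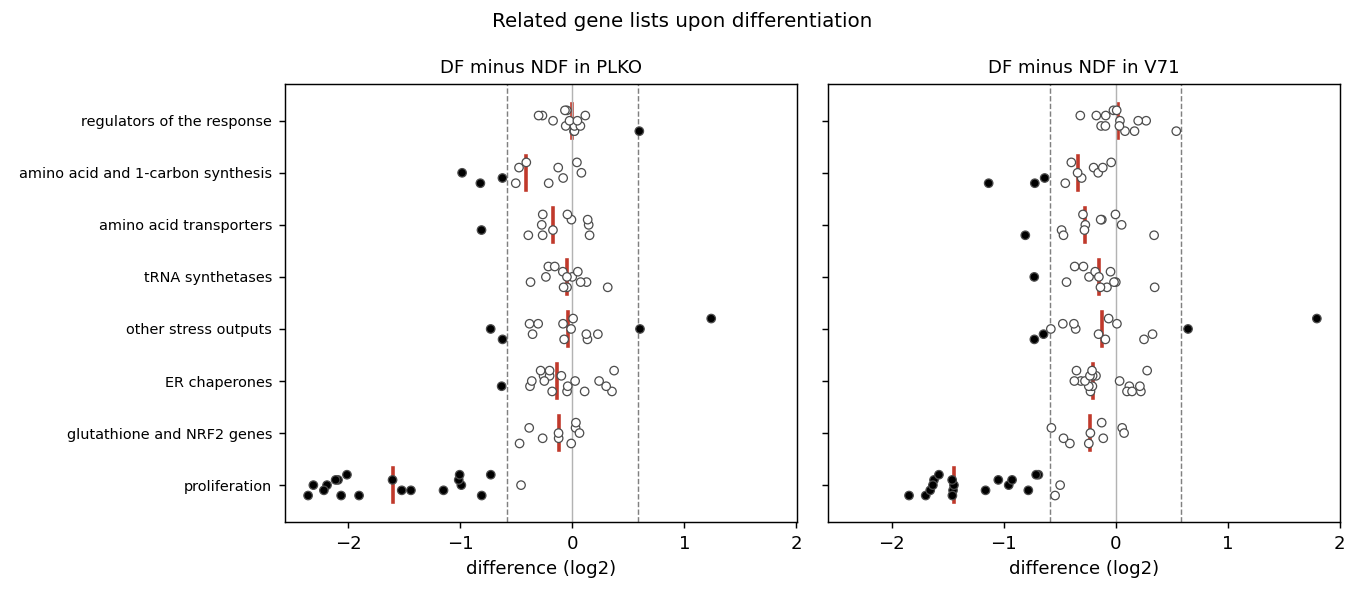
Difference DF minus NDF in log2 intensity for each gene of 8 lists, in PLKO and in V71. Black points were called, the others were not, and red bars are list medians. The median of the synthesis list is -0.41 in PLKO and -0.34 in V71, and that of the proliferation list is -1.61 and -1.44.

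Of 14 other stress outputs, limma called 3 between lines in NDF and 2 in DF, against 2.15% and 3.06% of all genes. With differentiation it called 4 in PLKO and 4 in V71, against 7.04% and 7.53%. Without moderation these counts were 1, 2, 2 and 2. VLDLR, a lipoprotein and reelin receptor, was 7.28 and 7.19 in PLKO NDF, 8.49 and 8.53 in V71 NDF, 7.13 and 7.17 in PLKO DF, and 8.08 and 7.99 in V71 DF. V71 stood above PLKO on every array. VLDLR was 1.27 higher (2.41-fold, adjusted p = 4.14e-05) in V71 in NDF and 0.88 higher (1.84-fold, adjusted p = 0.000381) in DF, in all 18 settings.

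SESN3, a paralogue of SESN2 also driven by FOXO factors, was 6.96 and 6.71 in PLKO NDF, 7.77 and 7.70 in V71 NDF, 8.10 and 8.06 in PLKO DF, and 9.49 and 9.57 in V71 DF. Each group stood clear of the others. SESN3 rose with differentiation by 1.24 in PLKO (adjusted p = 3.28e-05) and 1.80 in V71 (3.47-fold, adjusted p = 4.78e-06). It was higher in V71 by 0.90 in NDF (adjusted p = 0.00114, not called without moderation, at 0.0828) and by 1.45 in DF (2.74-fold, adjusted p = 5.08e-05). For SESN2 the matching differences were -0.09, -0.03, 0.03 and 0.09, and none passed.

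GADD45A, a DNA damage and stress gene, was 6.58 and 6.42 in PLKO NDF and 5.72 and 6.04 in V71 NDF. It was lower in V71 by 0.62 (adjusted p = 0.0214), a call that ended in 6 of 18 settings at up to 0.225, removal of PLKO NDF replicate 2 or 3 or of V71 NDF replicate 2 among them. With differentiation STC2, a secreted glycoprotein, fell by 0.62 in PLKO and 0.73 in V71. KLHL24 rose by 0.60 and 0.65. DDIT4, an mTORC1 inhibitor, fell by 0.73 in PLKO and TXNIP, a brake on glucose uptake, by 0.64 in V71. In the other line DDIT4 differed by -0.36 and TXNIP by -0.36, and neither those differences nor the interactions passed. Each of these calls ended in 1 to 4 of 18 settings. STC2 in PLKO ended without PLKO NDF replicate 3 or PLKO DF replicate 2, and its smallest size over the settings was 0.48. KLHL24 ended without PLKO NDF replicate 2 or PLKO DF replicate 2 in PLKO (smallest size 0.50) and without V71 DF replicate 2 in V71 (smallest size 0.58). DDIT4 ended without PLKO DF replicate 1 (smallest size 0.56), and TXNIP without V71 NDF replicate 2 or V71 DF replicate 1 (smallest size 0.48).

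Of 18 chaperones and other unfolded protein response genes 1 was called, in 1 comparison. That was with differentiation in PLKO, where limma called 7.04% of all genes. The other comparisons had 0 calls. Over all genes limma called 2.15% between lines in NDF, 3.06% in DF, 7.53% with differentiation in V71 and 1.39% for the interaction. At an unadjusted p under 0.05 by limma, 10 passed with differentiation in PLKO and 10 in V71, against 28% and 29.1% of all genes. Between lines the counts were 3 in NDF and 7 in DF, against 15% and 19.5%. The list medians with differentiation were -0.14 in PLKO and -0.21 in V71. Of the 18, 12 and 11 lay below 0, where 47% and 50.8% of all genes did. MANF, a secreted factor of the endoplasmic reticulum, was 7.76 and 7.69 in PLKO NDF and 6.99 and 7.20 in PLKO DF, and fell by 0.63 (adjusted p = 0.00184). That call ended without PLKO DF replicate 1, at 0.53. In V71 MANF differed by -0.24 (adjusted p = 0.149), and the interaction did not pass (adjusted p = 0.345). Of 9 glutathione and NRF2 genes limma called 0 in each comparison, against the shares of all genes given above for the chaperones. Without moderation 0 were called. At an unadjusted p under 0.05, 1 passed between lines in NDF and 3 in DF, against 15% and 19.5% of all genes. With differentiation 3 passed in PLKO and 4 in V71, against 28% and 29.1%, and 1 for the interaction, against 10.2%.

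Markers of other states moved alongside these results. Of 19 proliferation genes 18 fell with differentiation in PLKO and 17 in V71, against 4.16% and 3.55% of all genes. Their median differences were -1.61 and -1.44. Their mean level was 7.96 to 8 in PLKO NDF, 8.16 to 8.17 in V71 NDF, 6.33 to 6.48 in PLKO DF and 6.92 to 6.98 in V71 DF. Across differentiation they were lower where PHGDH, SHMT2 and MTHFD2 were lower. In DF, where ASNS was lower in V71, 10 of the 19 were higher in V71, 6 without PLKO DF replicate 1 and 2 without moderation. In NDF the only proliferation gene called between lines was MCM3, 0.60 lower in V71 and not called without moderation. For V71 minus PLKO 18 of the 19 lay above 0 and 1 below in NDF, and likewise in DF. Of 16 S-type markers 7 were lower in V71 in NDF and 4 in DF, and 4 and 1 without moderation. Over all genes limma called 2.15% between lines in NDF and 3.06% in DF, in either direction. The mean level of the S-type markers was 5.33 to 5.35 in PLKO NDF, 4.51 to 4.59 in V71 NDF, 4.82 to 4.85 in PLKO DF and 4.30 to 4.45 in V71 DF. Of the 11 noradrenergic markers, the granule proteins CHGA and CHGB were higher in V71 in NDF, by 0.99 and 0.79. In DF CHGB was 1.58 and MYCN 0.93 higher in V71, and DBH, the enzyme that makes noradrenaline, 0.74 lower. CHGB rose with differentiation by 1.43 in PLKO and 2.22 in V71, and in V71 DBH fell by 1.20 and GATA3 by 0.64. Between lines 9 of the 11 were not called in NDF and 8 in DF. With differentiation 10 were not called in PLKO and 8 in V71, where limma called 7.04% and 7.53% of all genes. The list medians with differentiation were -0.13 and -0.10. In each line 7 of the 11 lay below 0, where 47% and 50.8% of all genes did. Without moderation the noradrenergic calls between lines were 1 in NDF and 1 in DF. Leaving out replicate 3 of either NDF group ended the CHGB call in NDF, and leaving out replicate 3 of V71 NDF ended the GATA3 call in V71. The mean level of the noradrenergic list was 7.87 to 7.94 in PLKO NDF, 8.15 to 8.26 in V71 NDF, 7.93 to 7.96 in PLKO DF and 8.19 to 8.20 in V71 DF. Of 4 Schwann cell markers measured, the mean level was 3.72 to 3.93 on all arrays. The part of proliferation, S-type and noradrenergic state in the members' results was not tested.

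The genes whose pattern was most like that of ASNS over the 8 arrays were SETD3 (Pearson r = 0.991), GPALPP1 (0.989), PSMC1 (0.977), VAMP4 (0.971) and EFNA1 (0.969), among 11054 genes with a mean above the median row. The 8 points share 4 groups, so these values describe group patterns and carry no test. The other 9 members were left out of the genes compared.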

How the data were processed

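RNA from 8 samples was hybridised to Affymetrix Human Gene 1.0 ST arrays. Per the labels and methods, the authors summarised probes by RMA in Partek Genomics Suite 6.5 and deposited log2 values, which RMA compresses at the low end. Of 28869 rows, 19310 carried 1 gene symbol in the platform annotation, 1752 several and 7807 none. Where a gene had several rows the one with the highest mean was used.

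Group means were fitted with limma 3.58.1 in R 4.3.3 over all rows (4 residual degrees of freedom, prior 5.43), with Benjamini-Hochberg adjustment over all rows. A call needed an adjusted p under 0.05 and 1.5-fold. Groups came from the sample titles. The number of arrays limits the precision. The 10 members were named in every comparison, and up to 4 called genes per list and comparison with the largest change could be named. The 5 genes outside the members most correlated with ASNS were also named. The members and lists were chosen with earlier results of these data known. The code was tested on simulated data. Alternatives were no moderation, a trended prior, median centring, further quantile normalization, dim rows left out, adjustment over single-symbol rows, mean of rows, other fold thresholds, a replicate block, only the arrays compared and each array left out. Replicate numbers do not mark a stated pairing.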

Additional observations from a re-analysis of the deposited data

Results flagged for a closer look

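The difference between lines changed with differentiation, by the interaction term of the limma fit, for 7 list genes. They were 1 of 11 synthesis genes, 1 of 19 proliferation genes, 2 of 11 noradrenergic markers and 3 of 16 S-type markers. Over all genes 1.39% had an interaction call. BCAT1 was the only one in a pathway list, with an interaction of 0.64 (adjusted p = 0.0498). Among marker genes the interaction was 0.75 for the mitotic kinase BUB1, -0.87 for the granule protein CHGA and 0.65 for MYCN, with adjusted p-values of 0.0456, 0.0142 and 0.0498. Among S-type markers it was 1.44 for vimentin (VIM), 1.11 for SNAI2 and 0.90 for DCN, with adjusted p-values of 0.00446, 0.00408 and 0.0348. VIM lay near the lower quartile of the arrays in 3 of the 4 groups, at 3.17 and 3.23 in V71 NDF, 3.25 and 3.17 in PLKO DF and 3.02 and 2.80 in V71 DF, against 4.77 and 5.12 in PLKO NDF. DCN was under that quartile on all 4 V71 arrays and was left out with the dim rows. The part of the low end of the scale in the VIM and DCN interactions was not tested. SNAI2 was 4.49 or more on every array. The calls ended in 12 of 17 settings for BCAT1, 9 for BUB1, 8 for CHGA, 12 for MYCN, 1 each for VIM and SNAI2, and 8 for DCN. All 7 calls ended in the analysis of variance without moderation, which made 3 interaction calls over all genes. With 4 groups of 2 arrays no group was large enough to look for single outlying arrays.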

How the results depend on the processing

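Of 985 member values under the alternatives, 950 kept direction and side of the threshold, 25 changed sign, 8 gained a call and 2 lost one. With no fold threshold the members called were 1 in the DF line comparison, 3 with differentiation in PLKO and 4 in V71. With a 2-fold threshold both differentiation counts were 0. Leaving out 1 array gave 1 to 2 members called with differentiation in V71. The replicate block, with numbers as given or crossed between lines in NDF, left the members called at 0, 0, 1, 1 and 0. Over all genes the block with numbers as given made 388, 564, 1290, 1386 and 190 calls. Deviations of same-numbered arrays correlated at -0.176 in NDF and 0.188 in DF. Without moderation the calls over all genes were 99, 166, 920, 957 and 3, against 396, 563, 1293, 1383 and 256.

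Sign changes were limited to small differences. PSAT1 between lines in NDF was -0.005 after further quantile normalization. Leaving out 1 array gave, between lines in NDF, -0.195 to 0.016 for DDIT3, -0.05 to 0.101 for TRIB3, -0.033 to 0.045 for PSAT1 and -0.003 to 0.07 for SESN2, and in DF -0.097 to 0.054 for TRIB3. With differentiation it gave -0.065 to 0.205 for ATF4 and -0.09 to 0.282 for ATF3 in PLKO, and -0.068 to 0.004 for SESN2 in V71. The interaction ran from -0.104 to 0.166 for ATF4, -0.123 to 0.029 for TRIB3, -0.196 to 0.076 for CHAC1 and -0.049 to 0.114 for PHGDH. The cause was not tested.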
